A study of Mus musculus with 474 samples.

Results

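The comparison was between male Diversity Outbred (DO) mice with the highest and the lowest skeletal muscle levels of Amd2, a second gene for S-adenosylmethionine decarboxylase. DO mice descend from 8 inbred founder strains by random outbreeding, so that each animal carries its own mixture of founder alleles. The members were chosen by the Amd2 value itself: among the libraries labelled male, the 12 highest and the 12 lowest of each of the 5 outbreeding generations (17, 18, 19, 21 and 23) formed the Amd2-high group (60 libraries) and the Amd2-low group (60 libraries). The generation was read from a number in each title that the labels do not explain, and generations 17 and 23 rest on the titles alone. The 120 members were 25.3% of all libraries, 1 library per animal, and 50.2% of those labelled male. In the order of the generations the series held 46, 48, 50, 47 and 48 males, of which 119 were in neither group, and 48, 45, 49, 46 and 47 females. Every animal, in both groups and in both sexes, was fed the same high-fat, high-sugar diet (45% fat) and none was edited or given a drug. The groups therefore differed in no treatment, and genotype, litter and other traits of the animals were not analysed here. Ages do not stand in the labels.

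S-adenosylmethionine decarboxylase removes the carboxyl group of S-adenosylmethionine, the cell's main methyl donor, and so makes the aminopropyl donor from which spermidine and spermine are built. Ornithine decarboxylase, encoded by Odc1, supplies the starting polyamine putrescine, and these decarboxylases are the regulated steps of polyamine synthesis. Polyamines bind nucleic acids and are needed for translation and growth, and in rodent muscle the pathway is known to respond to androgens.

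Amd2 is a near copy of Amd1. In the GENCODE gene models on GRCm38, Amd2 (ENSMUSG00000063953) lay at chr10:35708675-35711892 on the minus strand and had 1 exon, whereas Amd1 (ENSMUSG00000075232) lay at chr10:40287458-40302188 on the same strand, 4.58 Mb away, and had 8 exons. The coding sequences had 1002 bases each and differed at 1 base, G796C, counted from 1 at the first base of the start codon with the Amd1 base given first. The stretch of coding bases 709 to 828 is shown because it holds that single difference, in capitals, and because it shows how little separates the copies for a short read. It lies within exons at chr10:40290154-40290273 for Amd1 and at chr10:35710732-35710851 for Amd2 (GENCODE transcripts, GRCm38, minus strand, 5′ to 3′).
Amd1: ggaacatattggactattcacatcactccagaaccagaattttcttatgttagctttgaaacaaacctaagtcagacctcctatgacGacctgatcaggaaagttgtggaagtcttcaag
Amd2: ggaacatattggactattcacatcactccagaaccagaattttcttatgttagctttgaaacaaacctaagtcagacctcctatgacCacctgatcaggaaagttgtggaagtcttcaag

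Of all stretches of 100 bases in the Amd2 transcript, 72.9% also occurred letter for letter in the Amd1 transcript. Over the whole transcripts (3218 and 3204 bases) the aligned sequences were 99.1% identical. Reads from these genes can be told apart only where the copies differ, and the deposited values are estimated counts that split shared reads between genes. The levels of Amd1, Amd2 and their pseudogenes were therefore given as descriptions, with no test, and all 4 were left out of the counts of genes that differed.

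Amd2 fell into separate levels in males. On the deposited variance-stabilized (VST) scale, which is close to log2, no male library lay between 10.43 and 11.68, while 48 (20.1%) lay below this gap. The share below it was 19.6% in generation 17, 25% in generation 18, 24% in generation 19, 17% in generation 21 and 14.6% in generation 23. The Amd2-high group ran from 15.57 over a median of 15.98 to 16.68, and the Amd2-low group from 8.46 over a median of 9.27 to 13.76. Only 48 of the 60 Amd2-low libraries belonged to the separate lower level. The other 12, in generations 17, 21 and 23, lay above the gap, at the bottom of the broad upper level.

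The upper limit of the ranking cut through a continuum, and the lower limit did so in 3 generations. At the upper limit, the twelfth and thirteenth libraries from the top were 15.57 and 15.48 in generation 17 and 15.77 and 15.75 in generation 19. At the lower limit, the twelfth and thirteenth from the bottom were 10.43 and 12.68 in generation 18 and 9.92 and 12.19 in generation 19, on either side of the empty range. They were 13.76 and 13.86 in generation 17, 13.35 and 13.78 in generation 21, and 13.56 and 14.16 in generation 23. The males in neither group ran from 12.19 to 15.82. Females, which the ranking did not use, ran from 6.99 to 14.60 with a median of 12.40; 72 of them (30.6%) lay below 11, and 18 lay within the gap seen in males.

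**Figure D1:**
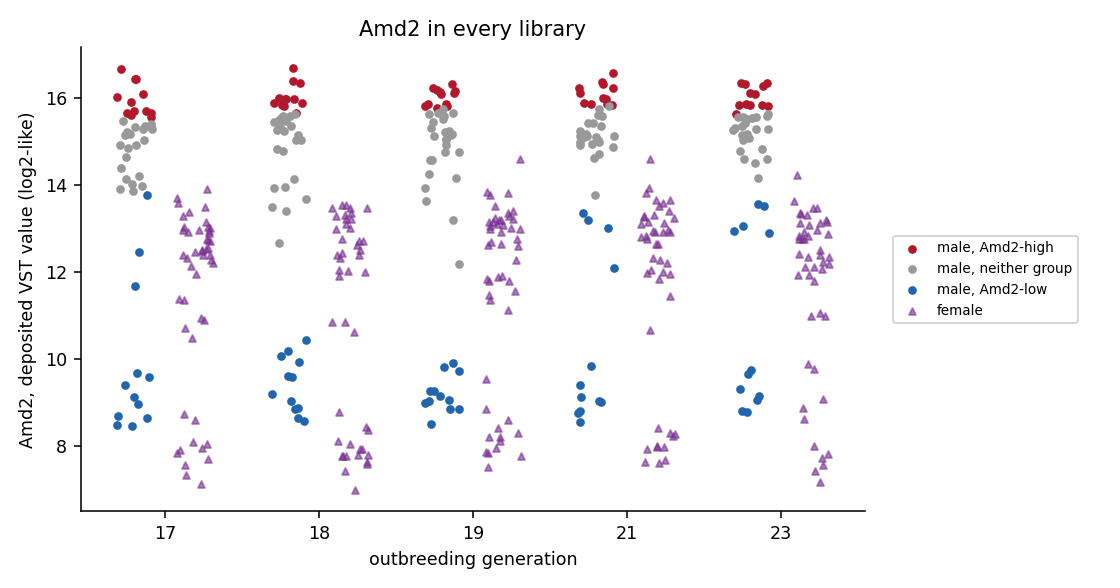
Amd2 in every library on the deposited VST scale (y axis, log2-like) by outbreeding generation (x axis), 1 point per library; red, grey and blue points are Amd2-high, unused and Amd2-low males and purple triangles are females. No male point lies between 10.43 and 11.68, and 48 male points lie below this gap.

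On the linear scale the groups were far apart. In CPM (counts scaled to the library total, here over all libraries), Amd2 in Amd2-high males ran from 607.3 over a median of 809 to 1322, and in Amd2-low males from 2.69 over a median of 5.90 to 172. The groups did not overlap, which the ranking fixes. Amd2 made up 41.4% ± 6.62 (SD, n = 60) of the summed CPM of the 4 Amd genes in Amd2-high males and 1.92% ± 3.18 (SD, n = 60) in Amd2-low males.

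Amd1 was abundant in both groups. It ran from 578.4 over a median of 1036 to 1981 CPM in Amd2-high males and from 691.4 over a median of 1288 to 2099 CPM in Amd2-low males, so the groups overlapped widely. The means were 1070.3 ± 333.9 and 1288 ± 313.5 CPM (SD, n = 60 each), lower in the Amd2-high group, in the direction opposite to Amd2. The males of neither group had the lowest mean Amd1, 985.5 ± 336.4 CPM, at an intermediate Amd2 of 428.9 ± 150.8 CPM (SD, n = 119). Amd1 thus did not fall steadily as Amd2 rose. The sum over the 4 genes was 2077 ± 401.1 CPM in Amd2-high and 1322 ± 322.3 CPM in Amd2-low males (SD, n = 60 each), while the sum without Amd2 was 1228 ± 325.6 and 1296 ± 314.2 CPM. How much of the Amd1 difference comes from the split of shared reads was not tested.

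The pseudogenes reached higher levels in Amd2-high males. Amd-ps3, a processed pseudogene on chromosome 18, ran from 5.27 over a median of 117 to 327.97 CPM in Amd2-high males and from 1.75 over a median of 6.54 to 31.6 CPM in Amd2-low males, so the ranges overlapped. Amd-ps4, a processed pseudogene on chromosome 4, reached 1 CPM in 25 of 60 Amd2-high libraries, with a highest value of 210 CPM, and in 0 of 60 Amd2-low libraries, where the highest value was 0.799 CPM. Amd-ps3 shared 77.9% of its stretches of 100 bases with Amd2 and 89% with Amd1, and Amd-ps4 shared 59.7% with each. In females, the 4 genes stood lower: the sum was 271.04 ± 83.8 CPM (SD, over all females), with Amd1 at 189 ± 57.9 CPM and Amd2 at 68.3 ± 57.1 CPM.

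**Figure D2:**
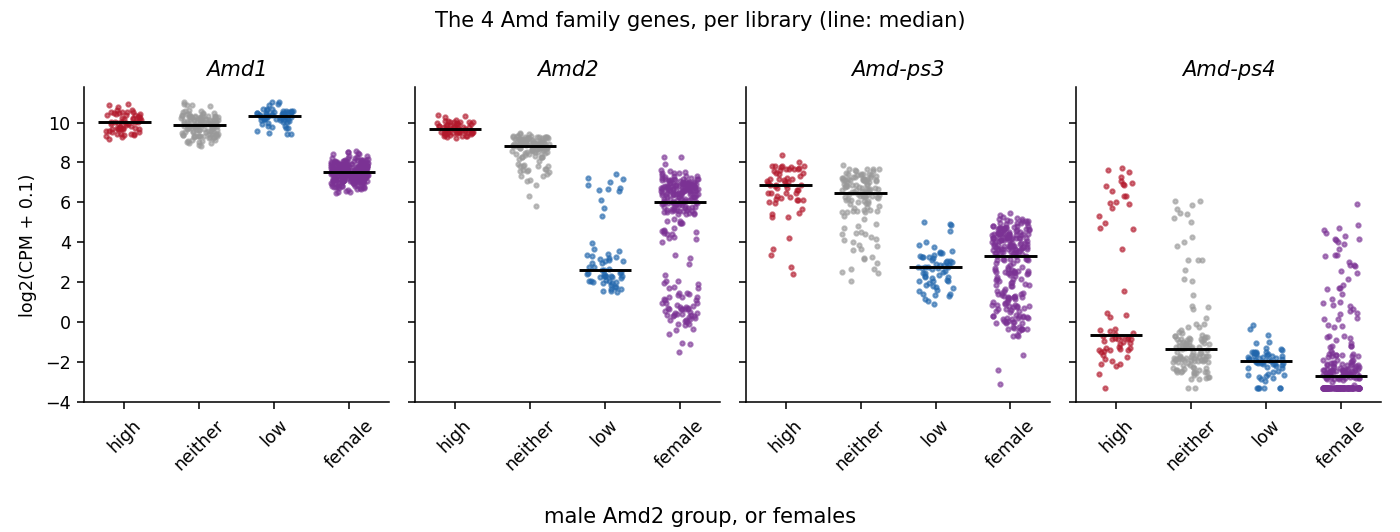
Level of the 4 Amd genes on a log2(CPM + 0.1) scale (y axis) in Amd2-high males, males in neither group, Amd2-low males and females (x axis), 1 point per library with a line at the median. Amd2 alone separates the male groups, which the ranking fixes, with medians of 809 against 5.90 CPM, while Amd-ps3 (117 against 6.54 CPM) and Amd1 (1036 against 1288 CPM) overlap.

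Depth did not pass a test of difference between the groups. Total estimated counts, in units of 1000000, were 79.98 ± 13.9 in Amd2-high and 80.8 ± 17.7 in Amd2-low libraries (SD, n = 60 each; range over both groups 51.3 to 138; 2-sided permutation test within generations, p = 0.779). Muscle creatine kinase, Ckm, was at 8155 CPM or more and the fast myosin heavy chain gene Myh4 at 51369 CPM or more in each of the 120 libraries. The 5 stretches of consecutive library numbers held 10 and 11, 12 and 12, 16 and 10, 15 and 12, and 7 and 15 Amd2-high and Amd2-low libraries. The Xist and Ddx3y levels of 1 Amd2-low library went against its sex label; 90 genes differed with it and 95 without it. In bulk tissue, fewer cells of a type and less RNA per cell cannot be told apart.

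Across the other genes, the question was which transcripts differed between males with high and low Amd2. Of 17708 genes tested, 90 differed at an adjusted p under 0.05 (0.508%; edgeR's quasi-likelihood test with generation as covariate, Benjamini-Hochberg adjustment). Of these, 55 were higher (0.311% of the genes tested) and 35 lower (0.198%) in Amd2-high males. Most differences were small: the median size among the 90 was 0.34 on the log2 scale, and 22 reached 1.5-fold, 9 higher and 13 lower. The median over all genes tested was 0.00. The count was 53 without generation 19 and 54 without generation 23. It depended on what was ranked: by the summed CPM of the 4 Amd genes, which left 70 of the 120 libraries in their group, 1081 genes (6.09%) were called, 65 of them on chromosome 10.

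Genes near Amd2 and Amd1 on chromosome 10 stood out. Of the 90 genes, 46 lay on chromosome 10, where 5.81% of 792 genes tested were called, against 0.260% of 16916 on the other chromosomes. The 20 smallest p-values all belonged to chromosome 10 genes. Within 4 Mb of Amd2, measured between gene starts, 9 of 23 genes were called (39.1%), and within 10 Mb 36 of 94 (38.3%). The densest stretch lay toward Amd1: within 4 Mb of Amd1, 27 of 58 genes (46.6%) were called, 15 higher and 12 lower. From 12 to 20 Mb beyond Amd2, none of 18 genes was called at this threshold. These shares are descriptions, since neighbouring genes are not independent.

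**Figure D3:**
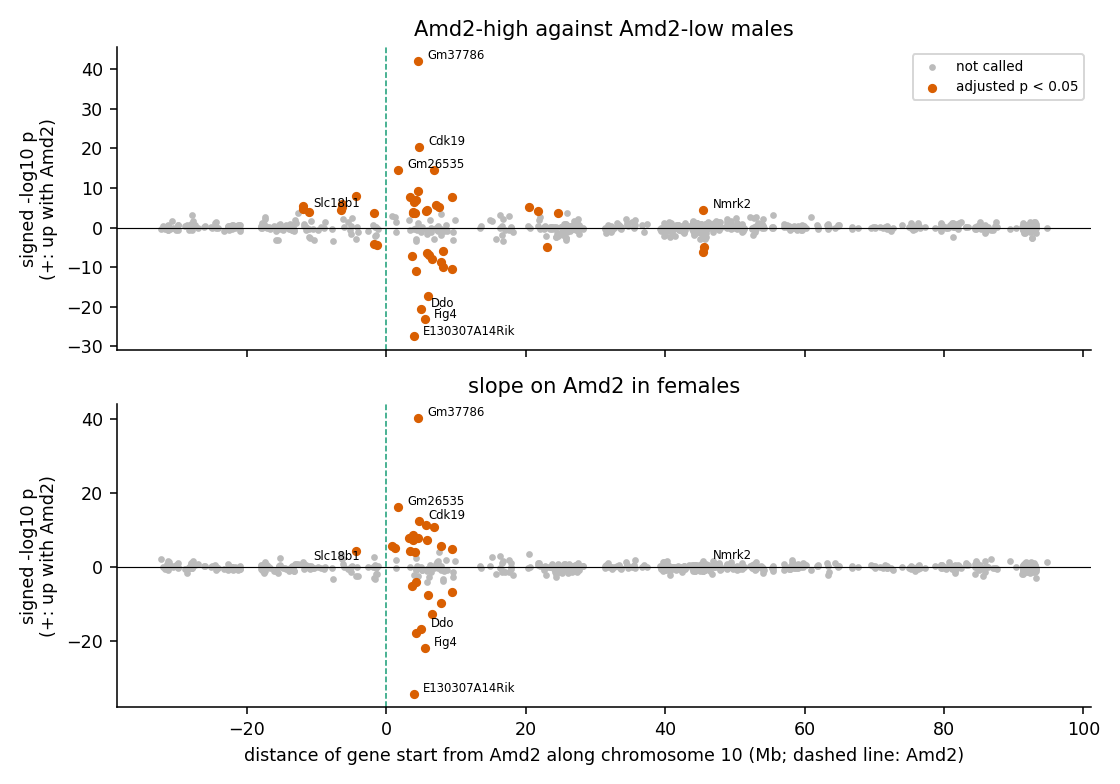
Signed −log10 p of each gene tested on chromosome 10 (y axis; above 0, higher with more Amd2) against the distance of its start from Amd2 in Mb (x axis), for Amd2-high against Amd2-low males (upper panel) and for the slope on Amd2 in females (lower panel); orange points passed an adjusted p of 0.05. In both panels the tall points stand from about the Amd2 line to 10 Mb beyond it. Within 10 Mb on either side of Amd2 there were 36 male and 28 female calls.

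Among the protein-coding genes of this stretch, Fig4, Ddo and Cdk19 had the smallest p-values. Fig4 (chr10:41188172-41303260), a phosphoinositide phosphatase of the endosome, ran from 6.59 over a median of 8.35 to 11.1 CPM in Amd2-high males and from 8.36 over a median of 10.9 to 12.2 CPM in Amd2-low males. The ranges overlapped, but 1 of 60 Amd2-high libraries stood above the Amd2-low median. The log2 difference was −0.35 ± 0.03 (SE; edgeR adjusted p = 1.96e-20), the same sign in all 5 generations.

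Ddo (chr10:40630011-40681847), D-aspartate oxidase, ran from 14.2 over a median of 19.6 to 32.8 CPM in Amd2-high males and from 17.8 over a median of 28.9 to 39.3 CPM in Amd2-low males. Of the Amd2-high libraries, 1 exceeded the Amd2-low median, and 59 of 60 Amd2-low libraries exceeded the Amd2-high median. Its log2 difference was −0.50 ± 0.04 (SE; edgeR adjusted p = 5.19e-18).

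Cdk19 (chr10:40339564-40483818), a kinase of the Mediator complex and the nearest of these to Amd1, moved the other way. It ran from 54.8 over a median of 89.4 to 139 CPM in Amd2-high males and from 29.7 over a median of 55.5 to 108 CPM in Amd2-low males, with 59 of 60 Amd2-high libraries above the Amd2-low median. Its log2 difference was 0.65 ± 0.06 (SE; edgeR adjusted p = 1.10e-17).

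Mfsd4b1, a member of a family of membrane transporters with other members beside it, showed the largest fall among the protein-coding genes of the same rule for level and sign that chose the genes of the plot of log2 differences. It ran from 0 over a median of 0.578 to 4.12 CPM in Amd2-high males and from 1.86 over a median of 3.18 to 5.50 CPM in Amd2-low males (log2 difference −1.70 ± 0.22, SE; edgeR adjusted p = 1.26e-08). All 60 Amd2-low libraries lay above the Amd2-high median, and 2 of 60 Amd2-high libraries lay above the Amd2-low median. The ranges overlapped between 1.86 and 4.12 CPM. Its neighbours Mfsd4b3-ps and Mfsd4b4 had log2 differences of 0.35 and 0.18, and whether these genes share reads was not tested.

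Cd24a, a surface glycoprotein gene, ran from 45.5 over a median of 101 to 266.2 CPM in Amd2-high and from 86.8 over a median of 175 to 274.7 CPM in Amd2-low males (log2 difference −0.66 ± 0.10, SE; edgeR adjusted p = 2.18e-06). Snx3, a sorting nexin of endosomal recycling that was chosen after its values were seen, had medians of 93.1 CPM in Amd2-high and 76.0 CPM in Amd2-low males and was higher by 0.30 ± 0.03 (SE; adjusted p = 4.54e-12). Both sets of ranges overlapped. Further falls were Cep57l1, a centrosomal protein gene, at −0.78, the mitochondrial ATPase gene Afg1l at −0.33 and Sesn1, a stress-responsive sestrin, at −0.33. Further rises on the same chromosome were Rps12, a small ribosomal subunit protein, at 0.57, Hddc2 at 0.52, Fam229b at 0.46, Echdc1, a metabolite-repair decarboxylase, at 0.45, Rev3l, the catalytic subunit of DNA polymerase zeta, at 0.42 and 9330159F19Rik at 0.40. Rps12, 9330159F19Rik, Echdc1 and Hddc2 lay before Amd2, on its far side from Amd1, with Rps12 at 11.9 Mb the farthest of the 4. Rps12, Echdc1 and 9330159F19Rik were not called without generation 17, nor 9330159F19Rik without generation 19 or with scores for fibre and cell types as covariates.

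Several of these calls depended on ranking by Amd2 alone. Ranked by the summed Amd genes, Ddo (−0.15, edgeR adjusted p = 0.0616), Mfsd4b1 (−0.60, adjusted p = 0.117), Cd24a (−0.11, adjusted p = 0.642) and Afg1l (−0.10, adjusted p = 0.365) were not called. The same was so for the rises of Rps12 (0.28), Hddc2 (0.21), Fam229b (0.21), Echdc1 (0.20) and 9330159F19Rik (0.19), with adjusted p from 0.0971 for Fam229b to 0.300 for 9330159F19Rik. Fig4, Cdk19, Cep57l1, Sesn1 and Rev3l were called under that ranking too.

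Of called protein-coding genes within 4 Mb of Amd2, Fam229b and Zup1, a deubiquitinase, were higher, by 0.46 and 0.28, and Rwdd1, Tspyl4 and the Src-family kinase gene Fyn were lower, by −0.13, −0.30 and −0.23 on the log2 scale. The adjusted p-values (edgeR) ran from 2.14e-05 for Fam229b to 0.0396 for Zup1. Zup1 lost its call under 6 of 20 alternatives, among them the fit with the stretch of library numbers added (adjusted p = 0.0685) and those without generation 17 or 19 (adjusted p = 0.262 and 0.312). Rwdd1 was not called without generation 17 or 23 (adjusted p = 0.291 and 0.0726), nor Tspyl4 without generation 17, 19 or 23 (adjusted p = 0.156, 0.155 and 0.0569). With the Amd2-low group limited to libraries below a VST of 11, Zup1, Rwdd1 and Tspyl4 were not called. Fyn shares positions with the antisense gene Gm16364 and Tspyl4 with Nt5dc1. Since strand use in the counting is not given in the sources used here, such overlapping pairs may share reads.

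The smallest p-value of all genes tested belonged to a gene not classed as protein-coding. Gm37786, an unclassified transcript at chr10:40219583-40222807, ran from 0.229 over a median of 0.715 to 1.55 CPM in Amd2-high males and from 0.0185 over a median of 0.119 to 0.300 CPM in Amd2-low males (log2 difference 2.61 ± 0.12, SE; edgeR adjusted p = 1.41e-38). All 60 Amd2-high libraries stood above the Amd2-low median and none of the 60 Amd2-low libraries stood above the Amd2-high median. E130307A14Rik, which overlaps Traf3ip2, had medians of 2.72 and 5.91 CPM (−0.99 ± 0.07, SE; adjusted p = 1.23e-24). These genes were chosen after their values were seen.

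Among the polyamine genes, Odc1, Smox and Slc18b1 were higher in Amd2-high males. Of 3 polyamine synthesis genes other than Amd1 and Amd2, 1 was higher and none lower; their median log2 difference was 0.15, against 0.00 over all genes tested. Of 8 tested genes of polyamine breakdown and transport, 2 were higher and none lower (median −0.02). Over all genes tested, 0.311% were called higher and 0.198% lower. None of 5 genes of the antizymes and their inhibitors (median −0.01) and none of 4 hypusination genes (median −0.00) was called.

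Odc1 (chr12:17544794-17551505) ran from 50.7 over a median of 193 to 405.9 CPM in Amd2-high males and from 52.0 over a median of 140 to 344.5 CPM in Amd2-low males. The ranges overlapped almost fully, and 46 of 60 Amd2-high libraries stood above the Amd2-low median, as against 10 of 60 Amd2-low libraries above the Amd2-high median. The log2 difference was 0.53 ± 0.11 (SE; edgeR adjusted p = 0.00393). Within generations it was uneven: 0.01 in generation 17, 0.86 in generation 18, 0.43 in generation 19, 0.95 in generation 21 and 0.31 in generation 23. Without generation 18 the adjusted p was 0.0674 and without generation 21 it was 0.0991. Over 20 alternatives that compared groups, the log2 difference of Odc1 ran from 0.38 to 0.71.

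Smox (chr2:131491496-131525922), spermine oxidase, which turns spermine back into spermidine, ran from 79.9 over a median of 168 to 380 CPM in Amd2-high males and from 41.6 over a median of 109 to 377.4 CPM in Amd2-low males. Here 51 of 60 Amd2-high libraries stood above the Amd2-low median. The log2 difference was 0.55 ± 0.11 (SE; edgeR adjusted p = 0.00161) and it was positive in each generation, from 0.43 in generation 17 to 1.05 in generation 21. Without generation 21 the adjusted p was 0.0829, and with Amd2 as a continuous value in all males it was 0.0843. Over the 20 alternatives that compared groups, the log2 difference of Smox ran from 0.41 to 1.17.

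Slc18b1, a vesicular polyamine transporter, stood at a median of 4.84 CPM in Amd2-high and 3.98 CPM in Amd2-low males, a log2 difference of 0.34 ± 0.08 (SE; edgeR adjusted p = 0.00786). It was not called without generation 17 (adjusted p = 0.112), without generation 19 (adjusted p = 0.0572) or when ranked by the summed Amd genes (0.09, adjusted p = 0.635). It is itself on chromosome 10, beside Rps12 and 11.9 Mb before Amd2. The spermidine and spermine synthase genes were not called: Srm had a log2 difference of −0.07 ± 0.05 and Sms of 0.15 ± 0.08 (SE; adjusted p = 0.631 and 0.549). The spermidine and spermine acetyltransferase gene Sat1 had −0.04 ± 0.05, the polyamine oxidase gene Paox −0.06 ± 0.05 and the transporter gene Atp13a3 0.13 ± 0.05 (SE; adjusted p = 0.853, 0.656 and 0.267).

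**Figure D4:**
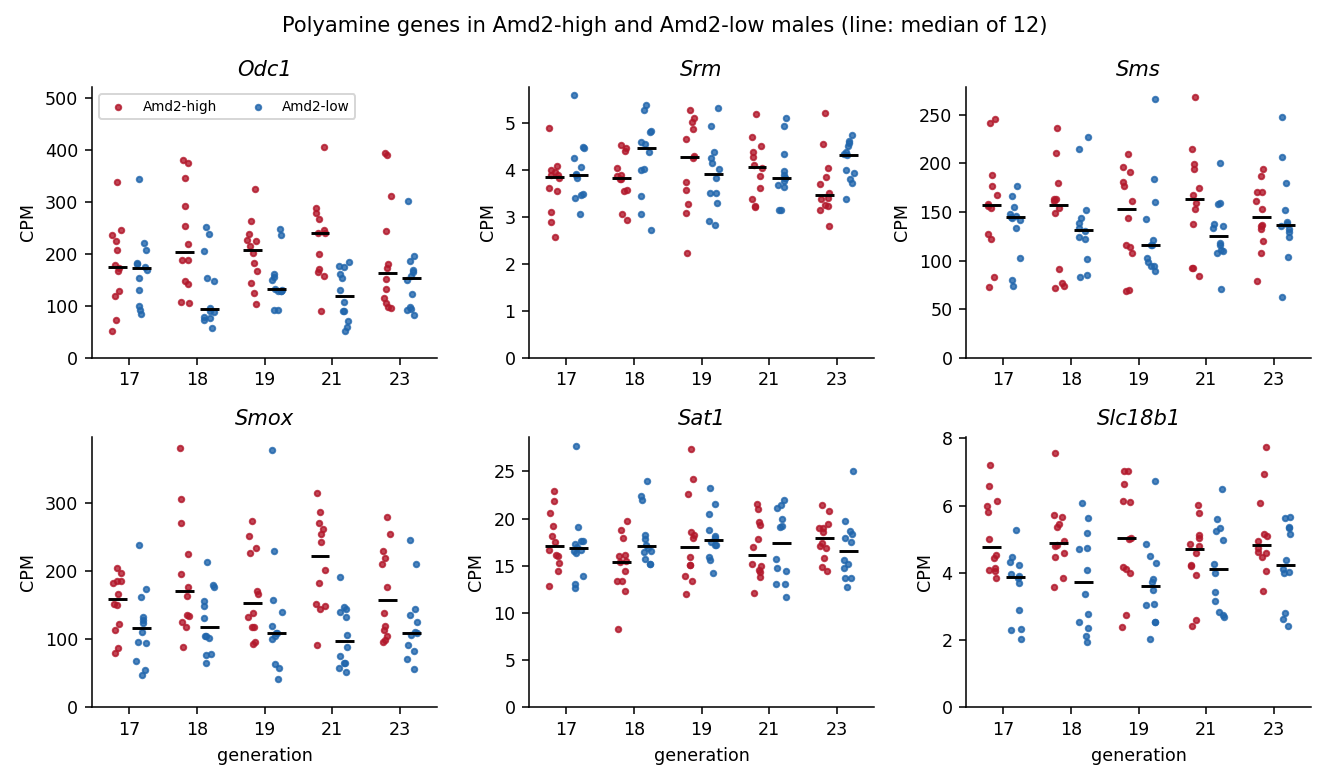
CPM (y axes, from 0) of 6 polyamine genes in Amd2-high (red) and Amd2-low (blue) males by generation (x axes), 1 point per library with a line at the median of 12. The medians of Odc1 and Smox are higher in Amd2-high males, 193 against 140 and 168 against 109 CPM over all generations, while those of Srm and Sat1 lie side by side.

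No gene on the methionine side of the pathway was called. Over all genes tested 0.508% were called, a share at which lists this short would mostly hold none. Of 11 tested genes of the methionine cycle none passed (median 0.03), the nearest by p being Mat2a, which makes S-adenosylmethionine in muscle, at 0.11 ± 0.04 (SE; edgeR adjusted p = 0.272). Of 5 genes of methionine salvage, which recycles the by-product of spermidine and spermine synthesis, none passed (median 0.05), with Adi1 at 0.19 ± 0.06 (SE; adjusted p = 0.114). None of 9 methyltransferase genes that use S-adenosylmethionine (median −0.03) and none of 8 arginine and ornithine genes (median 0.02) was called.

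Few or no genes of the lists for sex hormones and muscle type were called. Over all genes tested 0.508% were, a share at which lists of this size would mostly hold none. Igf1, a growth factor gene, had a log2 difference of 0.31 ± 0.10 (SE; edgeR adjusted p = 0.143). Slc15a5, a peptide transporter gene with strongly male-biased levels in these libraries (medians of 14.6 CPM in males and 0.516 CPM in females), had 0.12 ± 0.21 (SE; adjusted p = 0.899). Ranked by the summed Amd genes instead, Igf1 (0.52) was called. None of 18 androgen and growth hormone genes was called (median 0.04), none of 16 glucocorticoid-responsive genes (median 0.03, Fkbp5 at 0.16) and none of 13 genes of the stress response and one-carbon metabolism (median −0.01). Among genes chosen for sex bias in these libraries, 1 of 7 was called, Ucp1. Of 11 slow-fibre and 13 fast-fibre genes none was called (medians −0.05 and −0.01), with Myh7 at −0.06 and Myh4 at −0.04. None of 19 ribosome biogenesis genes, none of 73 oxidative phosphorylation genes and 1 of 82 ribosomal protein genes, Rps12, was called.

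Of the 44 called genes on other chromosomes, 27 were higher and 17 lower. Gclm, the modifier subunit of the first enzyme of glutathione synthesis, likewise chosen after its values were seen, ran from 9.25 over a median of 13.9 to 29.9 CPM in Amd2-high and from 8.17 over a median of 12.2 to 16.4 CPM in Amd2-low males (log2 difference 0.27 ± 0.05, SE; edgeR adjusted p = 4.15e-04). The tetraspanin gene Cd82 was higher by 0.39 and the transmembrane protein gene Tmem100 by 0.46. Adora1, the adenosine A1 receptor, had medians of 1.69 and 3.26 CPM and was lower by −0.85 ± 0.18 (SE; adjusted p = 0.00275), with 54 of 60 Amd2-low libraries above the Amd2-high median. Adora1 shares positions with Mybph, and whether these 2 genes share reads was not tested. Col24a1, a collagen gene, was lower by −0.45 and the ubiquitin ligase gene Sh3rf2 by −0.33. The Col24a1 call was lost under 10 of 20 alternatives, among them each of the fits without generation 18, 19, 21 or 23 (adjusted p = 0.254, 0.0991, 0.11 and 0.0726). Tmem100 lost its call under 6, among them the fit with the stretch of library numbers added (0.43, edgeR adjusted p = 0.0538) and those without generation 18 (0.25, adjusted p = 0.447) or 23. Sh3rf2 and Cd82 were not called without generation 19 or 21, and Adora1 was not called without generation 21 (adjusted p = 0.0592).

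Leptin, Lep, the adipocyte hormone, ran from 0.572 over a median of 5.12 to 49.1 CPM in Amd2-high males and from 1.276 over a median of 9.29 to 75.0 CPM in Amd2-low males (log2 difference −1.06 ± 0.25, SE; edgeR adjusted p = 0.0117). The ranges overlapped almost fully. Over all genes tested, 0.508% were called, the median log2 difference was 0.00 and 9020 of 17708 lay above 0. Lep was the only called gene of 9 adipocyte markers, whose median log2 difference was −0.09, with 1 of 9 above 0. The summed CPM of these markers ran from 431.9 over a median of 618.95 to 1145 in Amd2-high males and from 368.997 over a median of 665.8 to 1242 in Amd2-low males, and no marker was at 0 in most libraries. With scores for fibre and cell types as covariates the log2 difference of Lep was −0.48 (adjusted p = 0.288), and it was not called without generation 17, 18 or 23.

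Nmrk2, a nicotinamide riboside kinase enriched in muscle, showed the largest rise among called protein-coding genes with a mean of at least 1 CPM and the same sign in all 5 generations, 0.73 ± 0.17 (SE; edgeR adjusted p = 0.0104), from medians of 55.1 to 85.5 CPM. It lies on chromosome 10 but 45.5 Mb from Amd2, where it overlaps Atcayos and stands beside Atcay, both lower in Amd2-high males (−0.42 and −0.47). Atcay was not called without generation 17 or 23. Nmrk2 lost its call under 6 of 20 alternatives, among them the scores as covariates (0.57, adjusted p = 0.133), 20 libraries per group and generation (0.43, adjusted p = 0.0894) and leaving out generation 17 or 18. With Amd2 as a continuous value in all males, Nmrk2 (adjusted p = 0.247), Lep (0.302), Col24a1 (0.253), Cd82 (0.118), Atcay (0.0848) and Tspyl4 (0.0832) were not called by edgeR. Ucp1, the uncoupling protein of brown fat, had a fitted difference of 2.63 ± 0.61 (SE; adjusted p = 0.0104) that rested on few libraries: the medians were 0.0755 and 0.0648 CPM and the highest values 75.8 and 1.37 CPM. Ucp1 lost its call under 9 of 19 alternatives, among them DESeq2 (1.20, adjusted p = 0.329), the fit with the stretch of library numbers added (adjusted p = 0.0538) and those without generation 18, 21 or 23 (adjusted p = 0.0555, 0.129 and 0.238). The largest fitted difference, of the pseudogene Gm13339, was of the same kind, with medians of 0.0764 and 0.0636 CPM and a highest value of 2328 CPM; it was chosen after its values were seen.

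**Figure D5:**
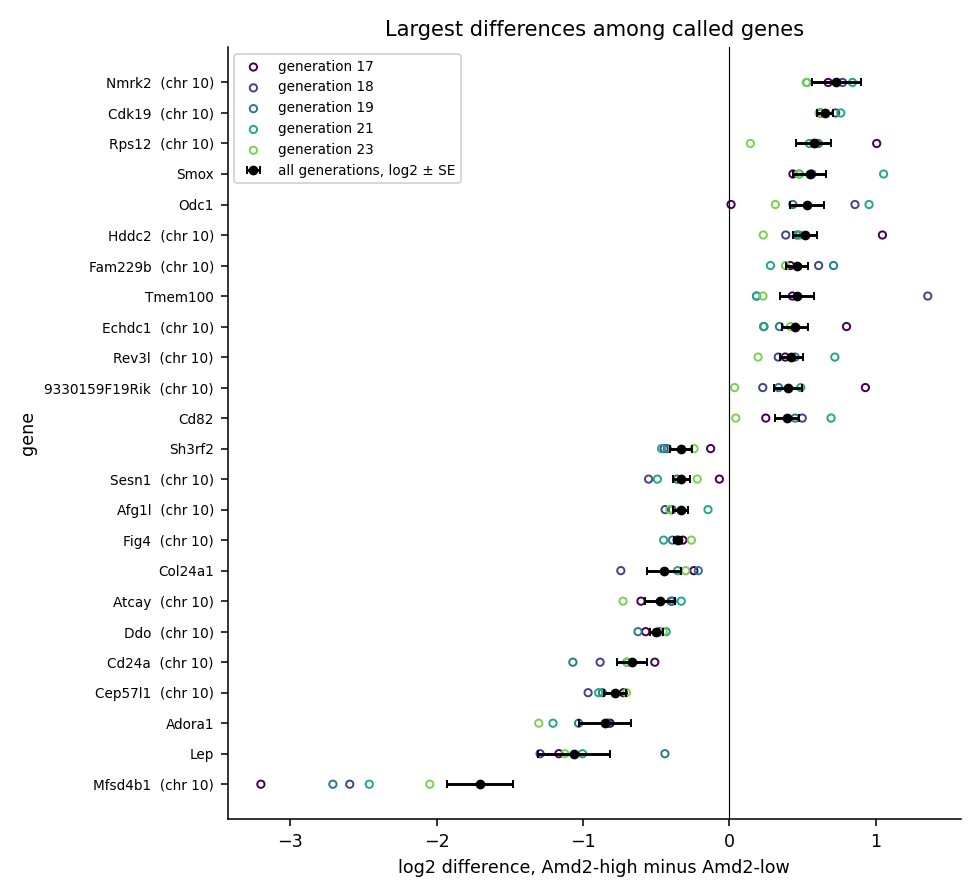
Log2 difference, Amd2-high minus Amd2-low (x axis), of the 12 largest rises and the 12 largest falls among called protein-coding genes with a mean of at least 1 CPM and the same sign in all 5 generations (y axis); black points and bars are the fit over all generations ± SE, and open circles are differences of mean log2 CPM within each generation, which for the low-level Mfsd4b1 all lie beyond the fitted value. The fitted values run from −1.70 for Mfsd4b1 to 0.73 for Nmrk2, and each gene keeps its sign in all 5 generations by the rule that named it.

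Other marker lists of cell types held no called gene. This was so for 10 macrophage (median log2 difference −0.05), 8 fibroblast (−0.04), 7 endothelial (−0.02), 7 Schwann cell (0.10) and 5 erythroid (0.08) markers. It was likewise so for 8 satellite cell and myogenic (0.01), 14 neuromuscular (0.02), 12 mitosis (−0.07), 13 immediate-early (−0.07) and 14 clock genes (−0.02). Over all genes tested 0.508% were called, a share at which lists this short would mostly hold none. Such counts do not show that cell composition was alike.

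The slope of each gene on Amd2 was then fitted in females, which the ranking did not use, and in the males that it put in neither group. In females, this slope (log2 per VST unit, generation as covariate, edgeR) was called for 29 of 18042 genes (0.161%). Of these, 28 lay on chromosome 10, all within 10 Mb of Amd2. Of the 46 chromosome 10 genes called in the male comparison, 46 had a slope of the same sign in females and 23 (50%) were called there, which is 82.1% of the 28. Among them, Gm37786 had a slope of 0.41 ± 0.02, Fig4 −0.05 ± 0.00, Ddo −0.06 ± 0.01, Cdk19 0.06 ± 0.01, Mfsd4b1 −0.23 ± 0.02 and Cd24a −0.10 ± 0.01 (SE), with adjusted p from 3.60e-37 to 2.93e-07.

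Of the 44 genes called in males on other chromosomes, 33 had the same sign in females, 8 reached an unadjusted p under 0.05 with that sign and 0 were called by edgeR. Odc1 had a female slope of 0.01 ± 0.01 (SE; edgeR adjusted p = 0.914) and Smox of 0.06 ± 0.02 (SE; adjusted p = 0.189). Their levels were lower in females, with medians of 56.1 and 35.3 CPM against 156 and 127 CPM over all males. A test of the difference of the slopes between the sexes gave 0.05 ± 0.02 for Odc1 (male minus female) and −0.00 ± 0.02 for Smox (SE; edgeR adjusted p = 0.875 and 0.999). The sexes were thus not shown to differ in either slope. The 1 gene called in females on another chromosome was Plk2, a stress-induced kinase, at −0.06 ± 0.02 (SE; adjusted p = 0.0206), which had a log2 difference of −0.01 in the male comparison.

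In the 119 males of neither group, where Amd2 spans a narrower range, 8 of 17882 genes were called (0.0447%). Of these, 7 lay on chromosome 10, and all 7 were among those called between Amd2-high and Amd2-low males: Ddo, Gm37786, Hddc2, Gm26535, Zup1, Mfsd4b1 and Fig4. The other was the globin gene Hba-a2. Of the 46 chromosome 10 genes, 42 had the same sign there. Of the 44 on other chromosomes 28 had the same sign, and 0 were called by edgeR, with 1 at an unadjusted p under 0.05 in that direction. The slopes of Odc1 and Smox were 0.04 and −0.03 (adjusted p = 0.999 each). Over all libraries, the slope differed between the sexes for 6 of 18819 genes (0.0319%), none of them on chromosome 10.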

How the data were processed

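PolyA-selected RNA of gastrocnemius muscle from DO mice was sequenced, 1 library per animal. The authors aligned both mates of each pair as single reads to a transcriptome of the 8 founders and deposited estimated counts per gene (20612 genes), together with a VST score from DESeq2, which was the value used for ranking. Per the labels the build was GRCm38. A step that removed batch is described by the study, and whether it applies to the deposited counts was not tested. The counts split reads between near-identical genes by a model, so the levels of the Amd genes are estimates.

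Estimated counts were rounded (68.6% were whole as deposited), scaled by TMM (factors 0.898 to 1.11 over the 120 libraries) and fitted in edgeR 4.0.16 with the quasi-likelihood F-test, generation as covariate; genes were kept by a minimum count of 10 (2900 removed). P-values were adjusted over all genes tested, threshold 0.05. Amd1, Amd2, Amd-ps3 and Amd-ps4 were left out of the counts. CPM of the 4 Amd genes and of the sexes were scaled on all libraries, other CPM on the 120. Slopes on Amd2 in females and in males of neither group, and the difference of slopes between the sexes, were fitted in the same way. The fits were tested on simulated data. Depth was 35.9 to 166 over all libraries in units of 1000000 estimated counts.

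The members and gene lists were chosen with earlier results of these data known. Genes were named by a rule: among called protein-coding genes with a mean of at least 1 CPM and the same sign in 5 generations, the 12 largest rises and 12 largest falls, plus the Amd genes, members of the polyamine and methionine lists, a few hormone-related and myosin genes, called protein-coding genes within 4 Mb of Amd2, and the leading members of other lists. Many of these list members are given only in counts and medians, and 1 gene is not reported here, although the counts include it. Genes outside the rule, Snx3 and Gclm among them, were chosen after their values were seen. Positions are those deposited, 99.2% of which equal GENCODE M21. Alternatives covered scaling, filters, covariates, DESeq2 1.42.0, limma 3.58.1 on the VST scores, group size, the ranking measure and leaving out generations. The study's own wave of animals and its genotypes were not used here.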

Additional observations from a re-analysis of the deposited data

Results flagged for a closer look

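The slope on Amd2 was tested for a difference between the sexes over all libraries, and 6 genes passed (edgeR's quasi-likelihood test, adjusted over 18819 genes; male minus female, log2 per VST unit). Of these, 4 lie on chromosome Y. Gm37158 differed by 1.32 ± 0.10, Gm21244 by 0.82 ± 0.06, Gm47283 by 0.98 ± 0.11 and Eif2s3y, a translation factor subunit, by 0.29 ± 0.06 (SE; adjusted p = 3.69e-30, 3.30e-28, 1.25e-12 and 0.00358). Their female median was 0 CPM each, so that a female slope rests on few reads, while the slopes over all males were 0.01, 0.00, −0.05 and 0.01. Tchh, a hair follicle protein gene on chromosome 3, differed by 0.58 ± 0.12 (SE; adjusted p = 0.00320); its highest male value was 299.4 CPM against a male median of 0.0645 CPM, and 6 males reached 1 CPM. Arsa, the lysosomal arylsulfatase A gene on chromosome 15, differed by 0.046 ± 0.01 (SE; adjusted p = 0.0434), with slopes of 0.03 in males and −0.02 in females and medians of 4.81 and 5.03 CPM. Arsa was also higher in Amd2-high males, by 0.18 ± 0.04 (SE; adjusted p = 0.00962). By limma on the VST scores 0 genes passed, with 871 of 18819 at an unadjusted p under 0.05. Without the libraries that went against their sex label, a choice made after seeing the data, 7 genes passed by edgeR.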

How the results depend on the processing

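The count of 90 genes lay between 72 and 121 under other scaling, filters, covariates, limma on the VST scores, 8 libraries per group and generation, Amd2 as a continuous value in all males, and leaving out generation 17, 18 or 21. It was 141 by DESeq2, 181 with 20 libraries per group and generation, 1081 when ranked by the summed Amd genes, 53 without generation 19 and 54 without generation 23. Within single generations it was 6, 11, 7, 4 and 29 (17 to 23 in order), and within the 5 stretches of library numbers 2, 5, 8, 6 and 1, where fewer libraries were fitted. Without the 12 Amd2-low libraries at a VST of 11 or more, chosen after seeing the data, it was 88. The count of slopes that differed between the sexes was 0 by limma. Of 30 named genes called, 6 kept their call under all 20 alternatives that used several generations and groups (19 for Ucp1), 14 lost it under 1 to 3 and 10 under 4 or more. In refits, the sign turned for Rwdd1 ranked by the summed Amd genes (0.012), and within the first stretch of library numbers for Zup1 (−0.045) and Ucp1 (−1.85); the cause was not tested. As differences of mean log2 CPM, Col24a1 turned in that stretch (0.20) and Ucp1 in that stretch (−1.41) and in generation 17 (−1.19). Of named genes not called, 20 were called under some alternative, 15 of them only when ranked by the summed Amd genes. No paired analysis was possible because replicate numbers name single animals and no animal is in both groups. What depth limits was not tested.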
